A study of Mus musculus with 6 samples.

Results

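Esm1 and 7 further genes known as markers of endothelial tip cells (Kcne3, Nid2, Mcam, Trp53i11, Plaur, Fscn1 and Chst1) were followed in embryonic mouse skin with and without Tie1, an orphan receptor tyrosine kinase of blood and lymphatic endothelium. The 8 genes were chosen by symbol from the 19131 genes of the count tables, with their knockout against control values in these libraries already known. The difference between the groups is therefore given for them as a description, with no p-value for any of them, and counts of calls and intervals among them support nothing. All 8 were among the 15035 genes with enough reads to be tested. The study made RNA-seq libraries from whole skin at embryonic day 17.5 on the C57BL/6N strain background, 3 from Tie1 knockout mice and 3 from control mice. Sample titles name the groups Tie1ECDKO and Tie1ECDWT, and the letters ECD are not explained. The labels do not say which part of Tie1 was removed or in which cells, nor whether libraries came from separate embryos or litters. All p-values are for that reason a measure of the spread between these samples alone, which may be technical.

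Tip cells are the endothelial cells at the front of a growing vessel sprout. They extend filopodia, move toward vascular endothelial growth factor (VEGF) and lay down new basement membrane, while the stalk cells behind them, held back by Notch signalling, form the tube. In whole skin most RNA comes from other cells, so the level of an endothelial gene depends both on how many cells carry it and on how much RNA each holds. Fewer cells of a type and less RNA per cell cannot be told apart in these data.

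Tie1 itself was read first, as a check on the labels. It had 84, 53 and 46 estimated reads in the 3 knockout libraries and 1187, 1023 and 1215 in the 3 controls. As CPM (reads of a gene relative to a common library size, scaled for library composition) these were 3.07 ± 1.11 (SD, n = 3) and 56.4 ± 5.02. The log2 fold change was −4.20 ± 0.23 (SE), with an adjusted p of 0.00387 in edgeR's quasi-likelihood test. Library totals ran from 19826856 to 20591164 estimated reads, so that 3 reads, taken here as the floor of measurement, were worth 0.147 to 0.155 CPM. Knockout 1 stood apart from the other 5 libraries on the first principal component, at −41.6 against a range of −9.19 to 28.2. Control 1 was also far from its own group. The variance between libraries, relative to random sampling of reads, was 34.5 and 32.4 from control 1 to controls 2 and 3. Between controls 2 and 3 it was 9.95. From knockout 1 to knockouts 2 and 3 it was 37.1 and 47.2, and between those 2 it was 11.7. Among all genes 24 passed an adjusted p of 0.05 in edgeR (0.16%), 13 of them higher (0.0865%) and 11 lower (0.0732%) in the knockout.

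Of the 8 markers 1, Esm1, was among the called genes, and none was among the lower ones. Every knockout library lay above every control library for 3 of them, Esm1, Trp53i11 and Mcam, where 7.03% of all genes were ordered this way and 6.78% the opposite way. An unadjusted p under 0.05 in edgeR was reached by the same number of markers, 3 of 8, against 7.42% of all genes. DESeq2 called 2 of the 8 (1.24% of all genes) and limma-voom called 1 (0.0998%). Because the contrast itself was in view when the markers were chosen, nothing is read from these shares. The median log2 fold change of the 8 was 0.15, beside 0.0038 over all genes tested, and 6 of the 8 lay at 0.24 or closer to 0.

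The start regions of the 3 markers whose groups did not overlap are shown so that they can be set side by side. Each is the 250 bases before an annotated transcript start, which for Trp53i11 lies inside the gene's widest span, 5′ to 3′ on the gene's strand, from RefSeq's table for GRCm38.p6. Capitals mark the ETS core GGAA, the letters at the heart of binding sites for the ETS factors that many endothelial genes carry, or the longer GGAAGT, read on either strand (TTCC and ACTTCC on the strand printed). The Esm1 window is chr13:113209409-113209658, the Trp53i11 window chr2:93187298-93187547 and the Mcam window chr9:44134408-44134657, all on the plus strand.
Esm1: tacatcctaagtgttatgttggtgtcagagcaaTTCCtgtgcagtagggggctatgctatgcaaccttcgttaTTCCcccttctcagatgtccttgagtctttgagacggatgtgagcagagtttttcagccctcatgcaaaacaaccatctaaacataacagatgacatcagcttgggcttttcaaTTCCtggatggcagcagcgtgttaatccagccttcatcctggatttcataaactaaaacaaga
Trp53i11: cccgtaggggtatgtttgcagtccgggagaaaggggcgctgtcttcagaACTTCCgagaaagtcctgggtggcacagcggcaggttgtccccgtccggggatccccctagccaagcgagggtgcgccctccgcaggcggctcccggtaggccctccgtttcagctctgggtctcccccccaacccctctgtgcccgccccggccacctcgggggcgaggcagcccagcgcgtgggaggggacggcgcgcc
Mcam: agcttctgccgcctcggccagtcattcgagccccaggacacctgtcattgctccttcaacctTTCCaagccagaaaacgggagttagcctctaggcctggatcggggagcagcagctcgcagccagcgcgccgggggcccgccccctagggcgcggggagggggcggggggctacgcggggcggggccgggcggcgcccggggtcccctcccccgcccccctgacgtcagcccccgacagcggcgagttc

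The Esm1 window differed in composition from the other two. It was 44.0% G and C with 3 CpG dinucleotides, below the median of 52.4% and 6 over all 32851 promoters of the table. The Trp53i11 window was 71.2% G and C with 22 CpG dinucleotides, and the Mcam window 73.6% with 25. Esm1 held 3 GGAA cores, all on the minus strand, at positions −217, −177 and −63 from the transcript start, and none of the longer motifs searched. All motifs were searched on both strands, and a window counts once however many matches it holds. The GGAA core stood in all 8 windows found for 7 of the markers, Kcne3 having 2 windows, and in 93.4% of all promoters. The stricter ETS match GGAAGT, which contains the core, stood in 3 of the 8 windows, those of Trp53i11, Chst1 and 1 of Kcne3, beside 19.7% of all promoters. The AP-1 motif TGANTCA stood in 2 (Kcne3 and Plaur) and in 6.7% of all. The hypoxia response element ACGTG stood in 1 (Kcne3) and in 16.6% of all. TGGGAA, the motif of the Notch effector RBPJ, which also contains the ETS core, stood in 1 (Kcne3) and in 21.6% of all. The FOX motif GTAAACA stood in none, and in 3.2% of all. These are matches of letters in a short window and show neither binding nor its lack.

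Esm1 encodes endocan, a proteoglycan secreted by endothelial cells and one of the most used tip cell markers. It lies at chr13:113209659-113218104, with 3 exons. Its levels were 21.0, 16.9 and 16 CPM in the knockout libraries and 0.543, 0.743 and 0.839 CPM in the controls. The lowest knockout library was thus far above the highest control, and all 3 controls were above the floor, with 11, 14.6 and 17 estimated reads against 408, 341 and 326. The group means were 18.0 ± 2.68 and 0.708 ± 0.151 CPM (SD, n = 3), a 25.4-fold difference. The fitted log2 fold change was 4.65 ± 0.20 (SE), with a 95% interval of 4.18 to 5.13, or 18.1- to 34.9-fold. The ratio of the reads summed per group, 1075 against 43, was 24.6, with an exact 95% interval of 18.1 to 34.2 that covers counting error only, since PCR reads without molecular identifiers are not independent molecules. Esm1 ranked 5th of the 15035 genes by log2 fold change. Per kilobase of its transcript, Esm1 was at 0.338 ± 0.072 CPM in control skin, above only 4.73% of the 14742 tested genes with a known length. In knockout skin it was at 8.57 ± 1.28 CPM per kilobase, above 50.6% of them. Genes with too few reads to be tested are not part of these shares.

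Trp53i11, a p53-inducible gene at chr2:93187349-93201757 with 8 exons, had the next largest difference. Its levels were 101.5, 107.7 and 111.5 CPM in the knockout libraries and 55.6, 68.6 and 74.9 CPM in the controls. All 3 knockout libraries lay above the controls, which were more spread than the knockouts. The means were 107 ± 5.02 and 66.4 ± 9.86 CPM, and the log2 fold change was 0.69 ± 0.11 (SE; 95% interval 0.43 to 0.95), or 1.35- to 1.93-fold. Among all genes 97.6% had a smaller log2 fold change. Its annotated end lies 0.003 kb from the neighbouring gene Tspan18, and no source used here says if reads were counted by strand. Tspan18 had a log2 fold change of −0.25 ± 0.072 (SE; adjusted p = 0.421 in edgeR).

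Mcam encodes CD146, an adhesion molecule of endothelial cells and also of the mural cells (pericytes and smooth muscle) around them. It lies at chr9:44134658-44142727, with 16 exons. Its levels were 133, 139 and 159 CPM in the knockout libraries and 114, 124 and 125 CPM in the controls, so the groups lay next to each other without overlap. The means were 144 ± 13.4 and 121 ± 5.97 CPM and the log2 fold change 0.24 ± 0.083 (SE; 95% interval 0.051 to 0.44). The summed level of 10 mural cell markers also lay higher in the knockout libraries, at 758 to 788 CPM against 689 to 748 CPM, and all 10 were above the filter on low counts. That sum weights abundant genes most, and the mean log2 CPM of the same 10 markers overlapped between the groups, with knockout libraries at 5.15, 5.18 and 5.22 and control libraries at 5.21, 5.07 and 5.13. Of these 10, 6 had a positive log2 fold change and none was called in edgeR (unadjusted p under 0.05: 3 higher and 3 lower; DESeq2: 1 higher and 2 lower; limma-voom: 0). The part of mural cells in the Mcam difference was not tested.

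**Figure D1:**
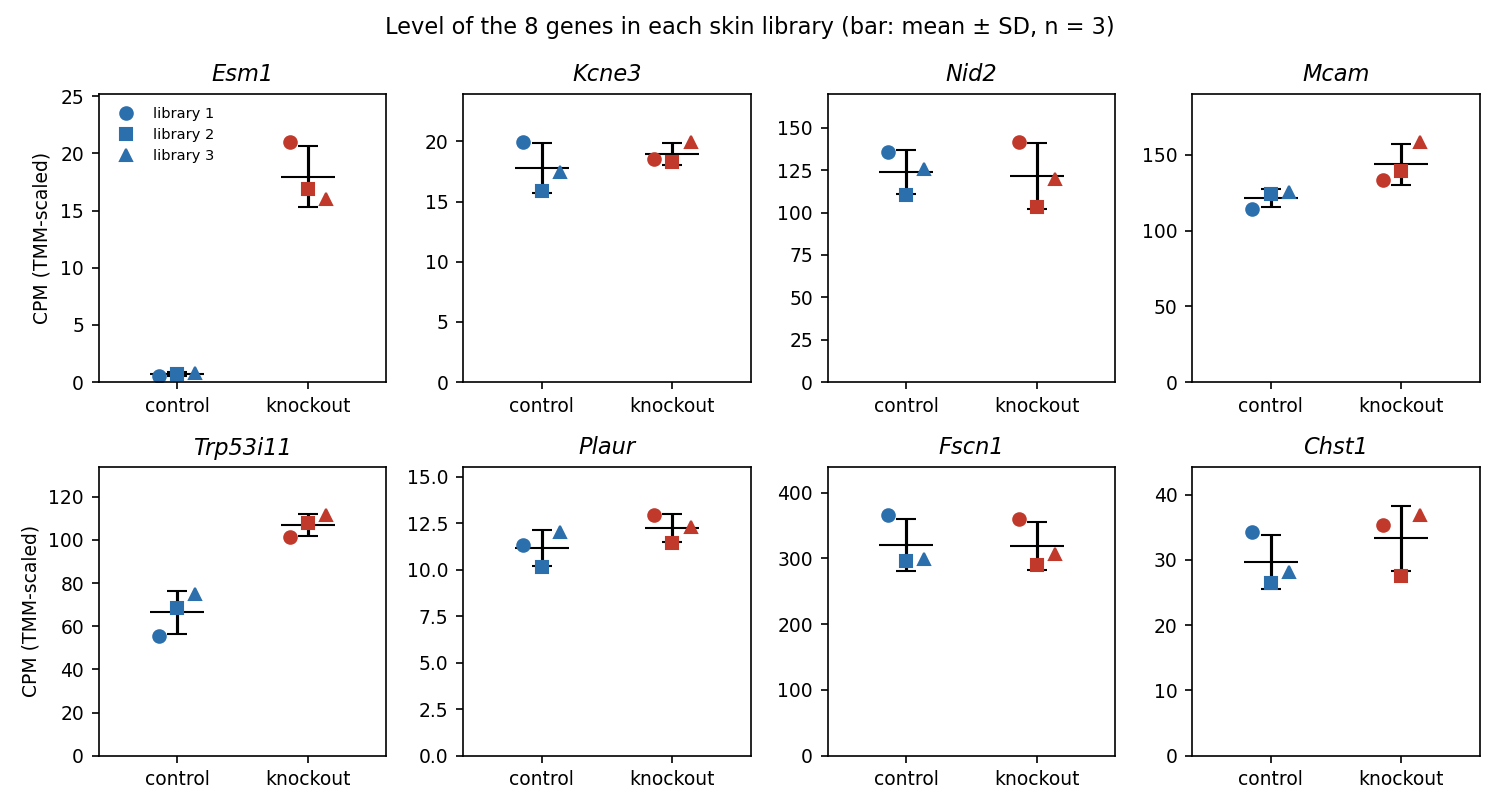
Level of each of the 8 markers in every library, in CPM, 1 panel per gene with its own axis starting at 0; points are the 3 control and 3 knockout libraries and bars the group mean ± SD. Esm1 at 16 to 21.0 CPM in the knockout against 0.543 to 0.839 CPM in controls, Trp53i11 and Mcam have groups that do not overlap, and the other 5 panels have groups that do.

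The remaining 5 markers had overlapping groups, and every one of their 95% intervals held 0. Plaur encodes the urokinase receptor, which holds a matrix-degrading protease at the cell surface, and is carried by macrophages as well as by sprouting endothelium. Its levels were 12.9, 11.5 and 12.3 CPM in the knockout and 11.3, 10.2 and 12 CPM in the controls, with a log2 fold change of 0.13 ± 0.11 (SE; 95% interval −0.13 to 0.39). The 7 macrophage markers, all with a positive log2 fold change (median 0.30), had a summed level of 417 to 483 CPM in the knockout and 287 to 397 CPM in the controls. None of the 7 was called in edgeR, DESeq2 or limma-voom, 2 had an unadjusted p under 0.05, and their part in the Plaur values was not tested.

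Kcne3 encodes a small subunit that modifies voltage-gated potassium channels. It had 18.5, 18.3 and 19.97 CPM in the knockout and 19.98, 15.9 and 17.5 CPM in the controls, and the highest library of each group stood at about the same level. The log2 fold change was 0.090 ± 0.11 (SE; 95% interval −0.16 to 0.34). Chst1 encodes a sulfotransferase that sulfates galactose in keratan sulfate chains. Its levels were 35.4, 27.6 and 36.9 CPM in the knockout and 34.3, 26.4 and 28.1 CPM in the controls. Knockout 2 fell within the control range, and the log2 fold change was 0.17 ± 0.14 (SE; 95% interval −0.17 to 0.50).

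Fscn1 encodes fascin, which bundles the actin filaments inside filopodia, and Nid2 encodes nidogen-2, a linker protein between laminin and collagen IV in basement membrane. Fscn1 had 359, 290 and 307 CPM in the knockout and 366, 296 and 300 CPM in the controls. Nid2 had 142, 103 and 120 CPM in the knockout and 136, 110 and 126 CPM in the controls. For both genes the library numbered 1 was the highest of its group, in knockout and control alike. Their log2 fold changes were −0.0075 ± 0.12 (SE; 95% interval −0.28 to 0.26) for Fscn1 and −0.027 ± 0.13 (SE; 95% interval −0.33 to 0.28) for Nid2. The interval of Fscn1 thus spans from a modest fall to a modest rise, and does not show that its level was the same. The last bases of Nid2 overlap the neighbouring gene Rtraf by 0.385 kb, and reads there cannot be assigned without knowing the strand setting.

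**Figure D2:**
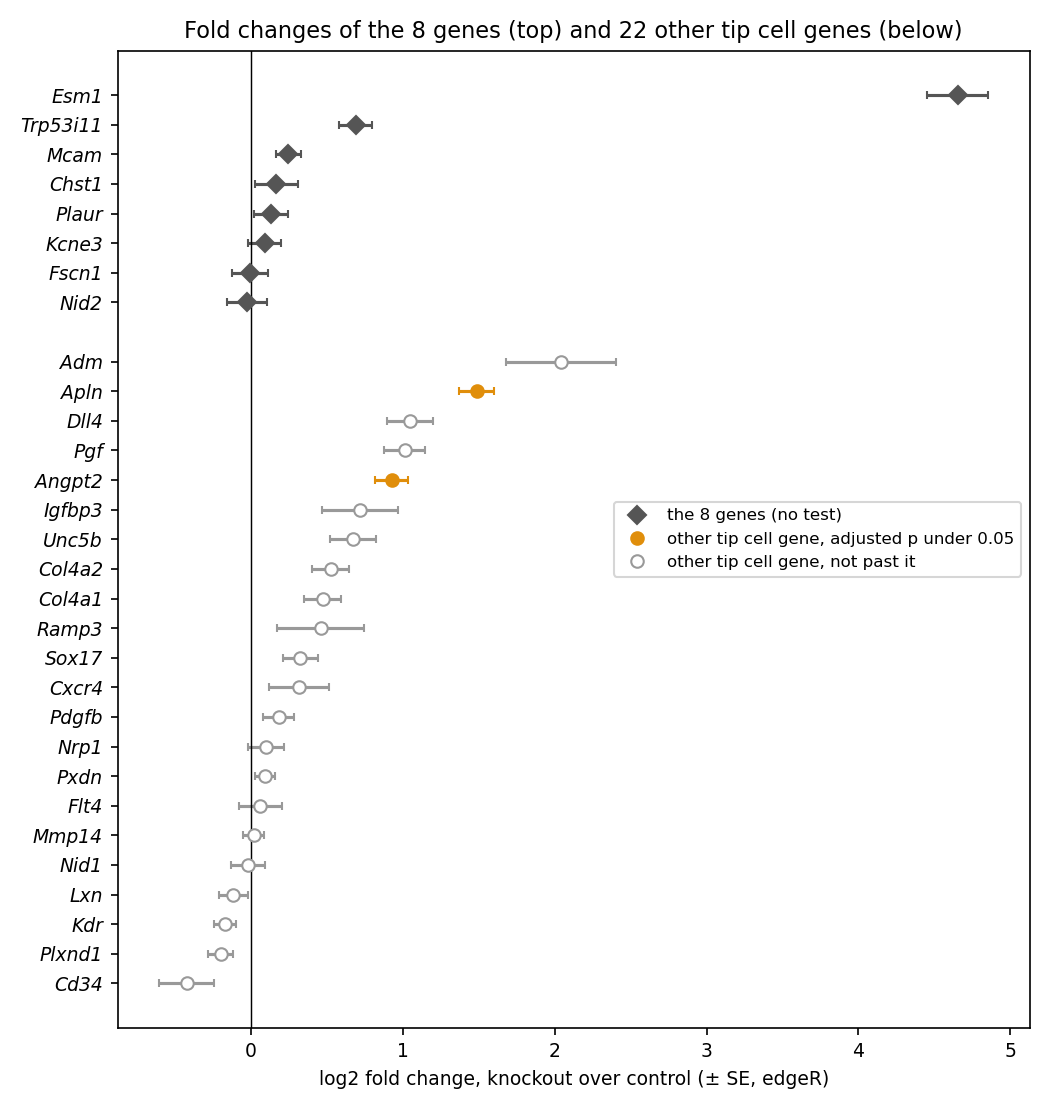
Log2 fold change (knockout over control, edgeR) of the 8 markers (diamonds, top) and of 22 other tip cell genes (circles, below), with bars for ± SE from 3 libraries a group; filled orange circles passed an adjusted p of 0.05. Esm1 stands at 4.65, Trp53i11 at 0.69 and Mcam at 0.24, and Apln at 1.48 and Angpt2 at 0.93 are the 2 filled circles.

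The order of the levels was set by length-corrected values, in CPM per kilobase of the longest protein-coding transcript. In control skin Fscn1 was highest at 120 ± 14.7, followed by Mcam at 40.6 ± 2.0, both beyond the spread of their neighbours in the order. Nid2 at 25.4 ± 2.62 and Trp53i11 at 24.6 ± 3.65 did not differ beyond their spread. Kcne3 at 13.4 ± 1.56 and Chst1 at 11.1 ± 1.55 overlapped within their SDs, Plaur followed at 7.42 ± 0.636, and Esm1 was last at 0.338 ± 0.072. In knockout skin Fscn1 at 119 ± 13.6 and Mcam at 48.1 ± 4.48 kept the top of the order, and Trp53i11 at 39.6 ± 1.86 stood above Nid2 at 24.9 ± 3.96. Kcne3 at 14.3 ± 0.691 and Chst1 at 12.4 ± 1.86 again overlapped within their SDs. Esm1 at 8.57 ± 1.28 and Plaur at 8.12 ± 0.495 were then level within their spread. Esm1 was therefore the marker with the least RNA per length in control skin, and the others were read at levels from 7.42 to 120.

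To set the markers against the amount of endothelium, each library's log2 CPM of a marker was compared with the mean log2 CPM of 20 pan-endothelial genes of the same library. The summed level of those 20 genes was 995, 1010 and 1148 CPM in the knockout and 1064, 988 and 1049 CPM in the controls, with overlapping groups, and their median log2 fold change was 0.014. None of the 20 was called in edgeR or limma-voom. An unadjusted p under 0.05 in edgeR was reached by 4 higher and 3 lower, where 7.42% of all genes passed in either direction. DESeq2 called 2 lower, where it called 1.24% of all genes. Single genes of this reference thus differed in both directions. On this scale the values of Esm1 were −1.04 ± 0.31 for knockout libraries and −5.57 ± 0.32 for control libraries (SD, n = 3), a difference of 4.53. Trp53i11 differed by 0.73 and Mcam by 0.28, again without overlap, and the other 5 by 0.0040 to 0.20 with overlap. With only Pecam1 and Cdh5, a pair of junction proteins of endothelium, as the reference, Esm1 differed by 4.26 and Trp53i11 by 0.46. Mcam then differed by 0.0076, Kcne3 by −0.14, Plaur by −0.10, Chst1 by −0.070, Fscn1 by −0.24 and Nid2 by −0.27. Pecam1 itself was at 173, 175 and 203 CPM in the knockout and 160, 147 and 151 CPM in the controls. Without knockout 1 the fitted log2 fold changes over all reads were 4.53 for Esm1, 0.72 for Trp53i11 and 0.30 for Mcam. Without control 1 they were 4.50, 0.57 and 0.20. The size of the Mcam difference from endothelium thus depended on which endothelial genes it was set against. The differences of Kcne3, Plaur, Chst1, Fscn1 and Nid2 changed sign between the references. Those of Esm1 and Trp53i11 kept their direction under both references.

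**Figure D3:**
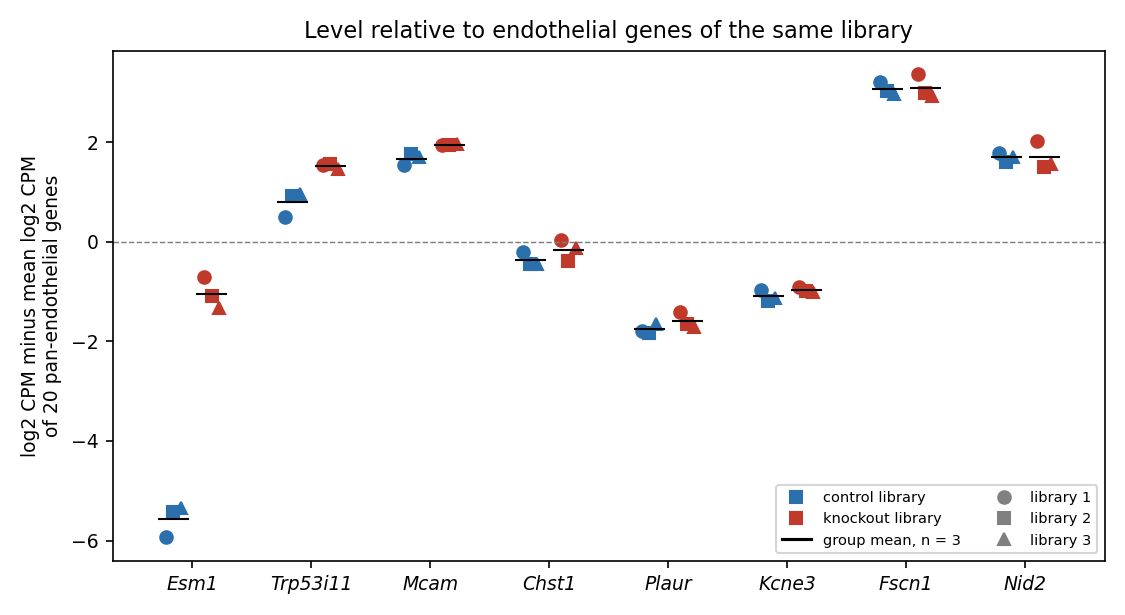
Level of each marker relative to endothelium, as log2 CPM minus the mean log2 CPM of 20 pan-endothelial genes in the same library; points are libraries (the shape gives the library number) and lines group means, with genes ordered by the difference and their heights not corrected for length. Esm1 rises from −5.57 to −1.04, and for Fscn1 and Nid2 library 1 is the highest of both groups.

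Of 22 other genes known from tip cells, edgeR called 2 higher in the knockout and none lower. Over all genes 0.0865% were called higher and 0.0732% lower. An unadjusted p under 0.05 in edgeR was reached by 10 higher and 1 lower (7.42% of all genes in either direction). DESeq2 called 8, all higher (1.24% of all genes), and limma-voom called 2 (0.0998%). Every knockout library lay above every control for 9 (7.03% of all genes) and below for 2, Plxnd1 and Kdr (6.78%). The median log2 fold change of the 22 was 0.32, and 17 of them were positive. This list, like the other gene lists here, was chosen with earlier results of these data known. Its counts and median are therefore a description and no independent support. Apln encodes apelin, a secreted peptide of sprouting endothelium, and was at 67.7, 54.5 and 57.9 CPM in the knockout against 23.9, 20.6 and 19.8 CPM in the controls. Its log2 fold change was 1.48 ± 0.11 (SE; adjusted p = 0.00827 in edgeR). Angpt2 encodes angiopoietin-2, the ligand that can block the Tie1 partner receptor Tek, and was at 34.8, 36.4 and 36.3 CPM in the knockout against 18.4, 16.4 and 21.7 CPM in the controls. Its log2 fold change was 0.93 ± 0.11 (SE; adjusted p = 0.0353 in edgeR). For both genes every knockout library was above every control. Pgf, a VEGF-family ligand, had 1.01 ± 0.14 (SE; adjusted p = 0.0547 in edgeR), and Dll4, the Notch ligand of tip cells, had 1.05 ± 0.15 (SE; adjusted p = 0.0702 in edgeR). Adm, which encodes the vessel peptide adrenomedullin and is named here because its value of 2.04 ± 0.36 (SE; adjusted p = 0.156 in edgeR) was the largest of the list, was chosen after its values were seen. Its libraries were at 32.2, 19.1 and 17.8 CPM in the knockout and 5.57, 3.37 and 7.80 CPM in the controls. The lowest value of the list was −0.43, for Cd34, also named after its value was seen. These calls did not hold in every omission of 1 library. With edgeR on 5 libraries Apln passed in 3 of the 6 omissions. Its adjusted p was 0.0559 without knockout 2, 0.0961 without control 2 and 0.0763 without control 3. Angpt2 passed in none, from 0.0758 without control 3 to 0.272 without knockout 2. The log2 fold changes in these fits stayed at 1.39 to 1.57 for Apln and 0.83 to 1.03 for Angpt2. Over all genes the same omissions gave 1 to 11 calls, beside 24 with all 6 libraries. Not all of these calls were among the 24: without knockout 1 it was 10 of 11.

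A list of 12 genes known from stalk and quiescent endothelium was read as well. In control skin Klf4 of this list stood at 253 CPM and Nrarp at 129 CPM, beside 153 CPM for Pecam1. Which cells of skin carried the listed genes was not tested. None of the 12 was called in edgeR or limma-voom, and 1 higher and 3 lower passed an unadjusted p of 0.05 in edgeR. DESeq2 called 2 lower, and the median log2 fold change was 0.17. The 4 with the smallest p were Aplnr, the apelin receptor, at −1.60 ± 0.21 (SE; adjusted p = 0.0678 in edgeR), Nos3 (nitric oxide synthase) at −0.63 (0.135), Robo4 at 0.40 (0.271) and Klf2 at −0.43 (0.533). Apln and Aplnr, a ligand and its receptor, thus had log2 fold changes of opposite sign. Among the pan-endothelial genes the 4 with the smallest p were Plvap at −0.59 (0.0528), Emcn at −0.52 (0.153), Eng at 0.27 (0.306) and Adgrl4 at 0.50 (0.395), each an edgeR log2 fold change with its adjusted p.

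**Figure D4:**
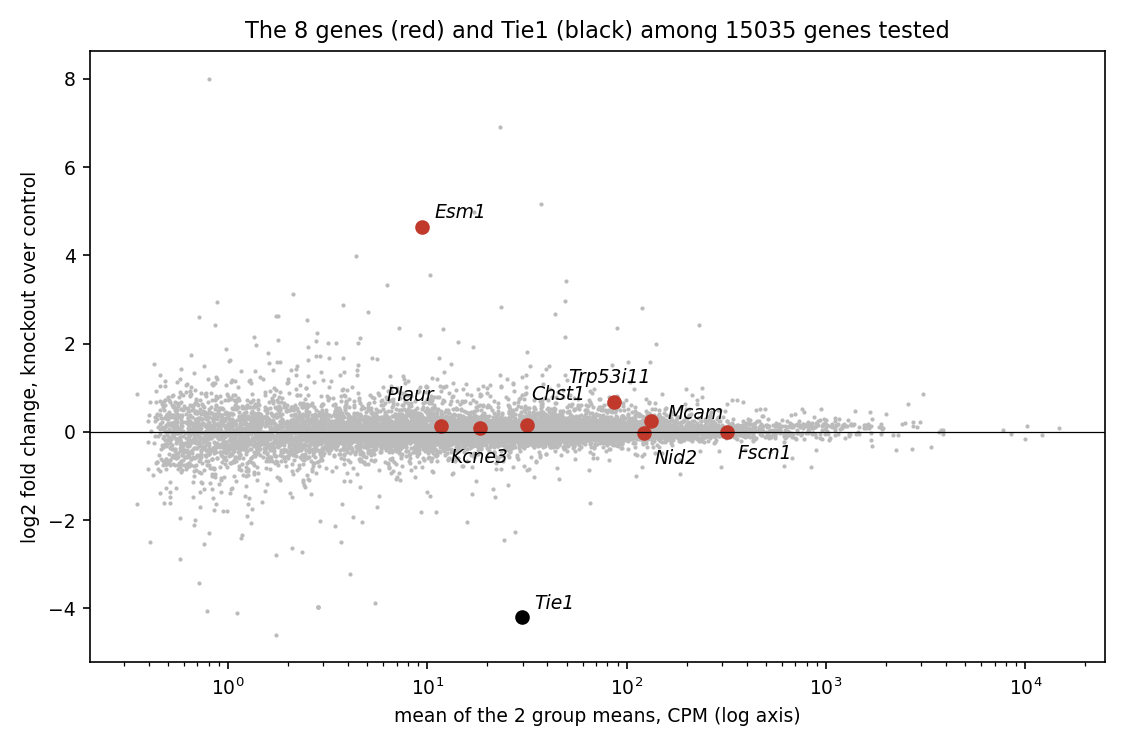
Log2 fold change (knockout over control) of the 15035 genes tested (grey) against the mean of both group means in CPM on a log axis, with the 8 markers in red and Tie1 in black. Esm1 at 4.65 lies above nearly all genes of its level, Tie1 at −4.20 lies at the bottom, and Trp53i11 at 0.69 lies above 97.6% of all genes.

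The partners of the markers other than Esm1 and Trp53i11 were read next, by the role of each marker. No list of partners was drawn up for Esm1 or Trp53i11. Of 10 basement membrane partners of nidogens none was called in edgeR or limma-voom, 2 passed an unadjusted p of 0.05, and the same number, 2, were called by DESeq2. Col4a2 at 0.52 ± 0.12 (SE; adjusted p = 0.257 in edgeR) and Col4a1 at 0.47 (0.328), the collagen IV chains, had the smallest p, followed by Lama4 at 0.18 (0.671). Of 7 tested urokinase system genes none was called in edgeR, DESeq2 or limma-voom and 1 had an unadjusted p under 0.05. Plau, which encodes the protease that Plaur binds, was at 0.19, and Plg at 0 to 7 reads a library was too low to test. Of 6 tested genes of the KCNE family and its channels none was called in edgeR, DESeq2 or limma-voom, none had an unadjusted p under 0.05, and Kcne4 was at 0.26. Of 7 tested genes of the fascin family and filopodia none was called in edgeR, DESeq2 or limma-voom and 1 had an unadjusted p under 0.05, Myo10, the myosin of filopodial tips, at 0.24 (adjusted p = 0.395 in edgeR).

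In 2 lists 1 gene was called higher in edgeR. Of 15 tested sulfotransferases and keratan sulfate carriers, Fmod, which encodes the collagen-binding proteoglycan fibromodulin, was at 63.6, 52.8 and 43.6 CPM in the knockout and 22.3, 23.4 and 19.2 CPM in the controls. Its log2 fold change was 1.30 ± 0.15 (SE; adjusted p = 0.0353 in edgeR), and the other 14 were not called. Kera, another keratan sulfate proteoglycan gene, was at −0.78 (adjusted p = 0.402 in edgeR), and Chst10 at 0.46 and Chst11 at −0.26 followed. Of 7 partners of MCAM and related adhesion molecules, Pdgfrb, the receptor that marks pericytes and fibroblasts, was at 164, 152 and 158 CPM in the knockout and 108, 94.7 and 96.1 CPM in the controls. Its log2 fold change was 0.67 ± 0.072 (SE; adjusted p = 0.0330 in edgeR). Wnt5a, a ligand of the same list, was at 0.30 and Kdr, the VEGF receptor, at −0.17. With edgeR on 5 libraries Fmod passed only when knockout 1 or knockout 3 was left out and reached an adjusted p of 0.267 without knockout 2, and with limma-voom on all 6 libraries its adjusted p was 0.0564. Pdgfrb passed only when control 1 was left out and reached 0.203 without knockout 2.

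Markers of other cells of skin were read as counts. Among fibroblast (8), epidermis (8), dendritic and Langerhans (4 tested of 6), neutrophil (3 of 6), Schwann cell (6), skeletal muscle (6) and melanocyte (5) markers none was called in edgeR, DESeq2 or limma-voom, and 1 neutrophil and 1 Schwann cell marker had an unadjusted p under 0.05. The untested Cd207, a Langerhans cell marker, had 0 to 2 reads a library, and the neutrophil genes Mpo, Elane and Ly6g had 0 to 5. The epidermis list summed to 27187 to 31978 CPM in the knockout and 20742 to 38224 CPM in the controls, so the knockout range lay inside the control range. Among the mural markers with the smallest p, Higd1b was at 1.40 (adjusted p = 0.108 in edgeR), Cnn1 at −1.37 (0.156) and Myh11 at −0.82 (0.317). Of the macrophage markers, Cd68 was at 0.66 (0.430) and Mrc1 at 0.40.

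The nearest tested gene on either side of each marker gave 16 neighbours. None was called in edgeR, 2 had an unadjusted p under 0.05, and their log2 fold changes ran from −0.25 to 0.31 with a median of −0.019. Those 2 were Tspan18, given above, and Smg9, beside Plaur, at 0.23 ± 0.083 (SE; adjusted p = 0.577 in edgeR). The neighbours of Esm1, Gpx8 at 163 kb and Snx18 at 374 kb, had log2 fold changes of −0.12 and −0.035. Chst1 and Trp53i11 lie 572 kb apart on chromosome 2, with log2 fold changes of 0.17 and 0.69.

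The genes whose levels followed Esm1 most closely were ranked by Pearson's r of log2 CPM over the 6 libraries, among 13962 genes. Because Esm1 separates the groups so widely, this r rests mostly on the difference between the groups, which all 6 libraries share, and it is given as a description. Genes picked by this r were picked in large part for differing between the groups. Their p-values below, and those with 1 library left out, are therefore a description too and no independent support. The 6 highest were Kremen1 (0.997), C1qtnf9 (0.995), Tet2 (0.991), Notch4 (0.990), F2r (0.990) and Pgf (0.989), and 63 genes reached at least 0.95. The size of the difference did not follow the rank. Kremen1, a receptor for Wnt inhibitors, was at 166, 166 and 166 CPM in the knockout and 141, 142 and 142 CPM in the controls, a log2 fold change of only 0.23, and Tet2, a DNA demethylation enzyme gene, was at 0.15. C1qtnf9 was at 1.24 ± 0.093 (SE; adjusted p = 0.00827 in edgeR), Notch4, an endothelial Notch receptor, at 1.06 ± 0.098 (0.0173) and F2r, the thrombin receptor, at 0.61 ± 0.060 (0.0228). With edgeR on 5 libraries these 3 genes reached adjusted p-values of 0.0806, 0.0868 and 0.203 without knockout 2. C1qtnf9 also missed the threshold without control 2 (0.0961), Notch4 passed only without knockout 1, and F2r passed in none of the 6 omissions, its lowest adjusted p being 0.0508 without knockout 1. Among the other markers r with Esm1 was 0.95 for Trp53i11, 0.81 for Mcam, 0.62 for Plaur, 0.40 for Chst1, 0.36 for Kcne3, −0.041 for Fscn1 and −0.094 for Nid2, and for Tie1 it was −0.98.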

How the data were processed

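Bulk RNA-seq was made from mRNA of 6 skin samples (3 Tie1 knockout, 3 control), grouped and numbered by their labels. The authors deposited, per the file headers, 1 estimated count (expected count) per gene and library, not normalized. RSEM 1.2.12, Bowtie2 2.2.5, HISAT2 2.0.4 and the build GRCm38.p6 appear in the submitters' processing notes, without role or order. Such counts divide reads between similar genes by a model, and the use of strand in counting is not stated in the sources used here.

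Here the estimated counts were rounded, filtered with filterByExpr (minimum count 10), scaled by TMM and tested in edgeR 4.0.16 under R 4.3.3 (quasi-likelihood F test, robust fit), with Benjamini-Hochberg adjustment over 15035 genes and a threshold of 0.05. The standard error is the absolute log2 fold change divided by the square root of F, and 95% intervals use its t quantile. DESeq2 1.42.0, limma-voom (limma 3.58.1), other scalings, filters, a replicate block and the omission of libraries were alternatives. The code was also run on counts simulated from the means and dispersions of these libraries, with no effect of library number. That run checks the code and does not bear on the calls made here. Log2 CPM used a prior count of 2. Lengths are of the longest GENCODE M21 basic protein-coding transcript; coordinates and start regions are RefSeq's for GRCm38.p6.

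The markers and gene lists were chosen with earlier results of these data known. Named are Tie1, the 8 markers, of each list every called gene and up to 4 with the smallest p, up to 2 neighbours, and the 6 genes most correlated with Esm1 (predicted and Y-linked genes passed over). Kcne5 did not match the files by symbol, but was tested there under its older name Kcne1l (log2 fold change 0.16). Some genes that the rule names are not reported here.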

Additional observations from a re-analysis of the deposited data

How the results depend on the processing

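The markers were chosen on this contrast, so their values across settings are a description and no support. Over the 15 other fits the log2 fold change of Esm1 was 4.37 to 4.79; the ratio of group means with a pseudocount of 0.5 gave 3.93. Over all settings Trp53i11 ranged from 0.57 to 0.78, Mcam from 0.17 to 0.30, Chst1 from 0.084 to 0.29, Plaur from 0.057 to 0.18, Kcne3 from 0.0070 to 0.20, Fscn1 from −0.10 to 0.099 and Nid2 from −0.15 to 0.075. Over all genes 24 were called; this became 38 with no filter on low counts, 207 with DESeq2, 15 with limma-voom, 52 with the replicate block and 139 without both libraries numbered 1, and leaving out 1 library gave 1 (without knockout 2) to 11 (without knockout 1). The other tip cell genes called, 2, became 4 with no filter, 8 with DESeq2, 4 with the replicate block, 6 without both libraries numbered 1, and 0 to 1 with 1 library left out. Over the other lists and neighbours, leaving out genes that the tip cell list also holds (such as Col4a1 and Col4a2), 2 calls became 9 with DESeq2, 1 with limma-voom, 8 without both libraries numbered 1, and 0 to 1 with 1 library left out. Deviations of same-numbered libraries correlated at 0.41, 0.043 and 0.27, and those of differently numbered libraries at −0.35 to 0.18. Knockout 2 correlated more with control 3 (0.18) than with control 2. These values do not settle whether the numbers pair samples, and the labels do not say. The main fit therefore left the numbers out, and the replicate block is given as an alternative. Plau, at 0.19, was at −0.00053 without both libraries numbered 1, and Nid1, at −0.023, ranged from −0.14 (without control 2) to 0.034 (without knockout 2). The cause of these shifts was not tested. Depth limits the precision of Esm1 most in controls, which held 43 of its reads in all.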
